A study of Mus musculus with 107 samples.

Results

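Sulfur mustard is a bifunctional alkylating agent that blisters skin, and dimercaprol is a small dithiol, made as an antidote to the arsenical Lewisite, with which a mustard could react before it reaches the tissue. The question here was how the transcripts of mustard-exposed mouse ear skin differed when dimercaprol had been put on the skin first. The exposed right ears of 6 animals (6, 8, 9, 10, 11 and 12) that received 6.25 mg (50.3 µmol) dimercaprol in 10 µL ethanol 15 min before 0.08 mg (0.5 µmol) sulfur mustard were set against the exposed right ears of 5 animals (1, 3, 5, 36 and 37) that received the same mustard dose alone. The members were chosen by these labels alone, and they are 11 ears on 22 arrays of the 107 arrays in the series, each ear having been hybridised once to array A and once to array B, which carry different probe sets and were tested apart.

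Every mustard dose was given in 5 µL methylene chloride on the inner side of the right ear, and an 8 mm biopsy of the ear was taken 24 h later for RNA, of which 10 µg was used for labelling. The left ears of 21 animals received methylene chloride alone and are called vehicle ears below. They include the left ears of 4 of the mustard animals (1, 3, 36 and 37) and of 4 of the pretreated animals (8, 9, 10 and 11). Array A also held ears that received no mustard: 4 with dimercaprol, 3 with ethanol and 5 naive ears from 3 animals. The labels give neither strain, sex nor age, and do not say where on the ear dimercaprol was put. No ear received ethanol and then mustard, so that dimercaprol and its ethanol cannot be told apart in this comparison. An ear is named below by its animal's number.

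As background, mustard alkylates DNA bases and crosslinks the strands of DNA, which activates p53 and its arrest and repair targets. Keratinocytes at a wound edge switch on a hyperproliferative program of keratins 6, 16 and 17, S100 proteins and EGF receptor ligands, driven in part by AP-1. They also release chemokines of the CXC family, which draw neutrophils, through NF-kappaB.

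Expression was read as scaled signal, the authors' linear signal multiplied so that the trimmed mean of each array was 500. Differences are log2 values of scaled signal plus 16 and are given as pretreated minus mustard alone, with the standard error (SE) of the limma fit; a gene is called at an adjusted p (Benjamini-Hochberg over the array) under 0.05. Beside a count of 0 the number at an unadjusted p under 0.05 in the same limma fit is given. Each gene stands for its brightest probe set, taken from array A unless it was measured on array B alone. Of 15022 genes measured, 3601 (24.0%) were called: 2155 (14.3%) were higher and 1446 (9.63%) were lower in the pretreated ears than after mustard alone. All 6 pretreated ears lay above all 5 mustard ears for 723 genes (4.81%) and below them for 416 (2.77%), together 1139 genes (7.58%). By probe set, 2488 of 15953 (15.6%) were higher and 1792 (11.2%) lower on array A, 26.8% in all, and 1619 of 17287 (9.37%) were higher and 1225 (7.09%) lower on array B, 16.5% in all. Against the vehicle ears, 5785 genes (38.5%) differed after mustard alone, 2569 (17.1%) of them higher and 3216 (21.4%) lower. Against the same vehicle ears, 409 genes (2.72%) differed in the pretreated ears, 242 (1.61%) higher and 167 (1.11%) lower. These comparisons share their vehicle ears or their treated ears, so the values below are set side by side and are not independent.

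Array brightness, RNA quality and individual ears moved with the groups, and these values stand beside all results that follow. The trimmed mean signal of array A before scaling was 117, 130, 85.7, 137 and 66.3 in mustard ears 1, 3, 5, 36 and 37 and 149 to 267 in the pretreated ears, with a median of 188, so that the groups did not overlap; the vehicle ears ran from 111 to 221. On array B the mustard ears (18.7 to 37.9) and the pretreated ears (34.2 to 45.5) overlapped. Mustard ears 5 and 37 were the dimmest on array A. They also had a Gapdh 3' to 5' signal ratio, which grows as RNA degrades, of 0.63 and 0.78 on the log2 scale, against -0.05 to 0.08 in the other 3 mustard ears and -0.10 to 0.04 in the pretreated ears. Without ears 5 and 37, 824 genes (5.49%) were called higher and 397 (2.64%) lower, 8.13% in all. By probe set these were 910 (5.70%) and 507 (3.18%) on array A, 8.88% in all, and 551 (3.19%) and 187 (1.08%) on array B, 4.27% in all. With brightness as a covariate, 292 genes (1.94%) were called higher and 100 (0.666%) lower, 2.61% in all. With the right ear read against the left ear of the same animal, possible for 4 mustard and 4 pretreated animals, 0 of 15953 probe sets on array A and 0 of 17287 on array B were called in limma (2132 and 1330 at an unadjusted p under 0.05), in a fit with fewer arrays. In that fit 145 of the 146 called genes among those named here kept their direction and 0 kept their call. That fit reuses right ears from which these genes were chosen, so a kept direction is no separate support for the calls. Because brightness follows the groups on array A, its part cannot be told apart from treatment there. Without rescaling, the median difference over all genes was 0.63 instead of -0.02, so each difference below is relative to the bulk of the genes on its array. Signals under the filter of 100 are near the floor, and a fold against such a group depends on the 16 added.

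**Figure D1:**
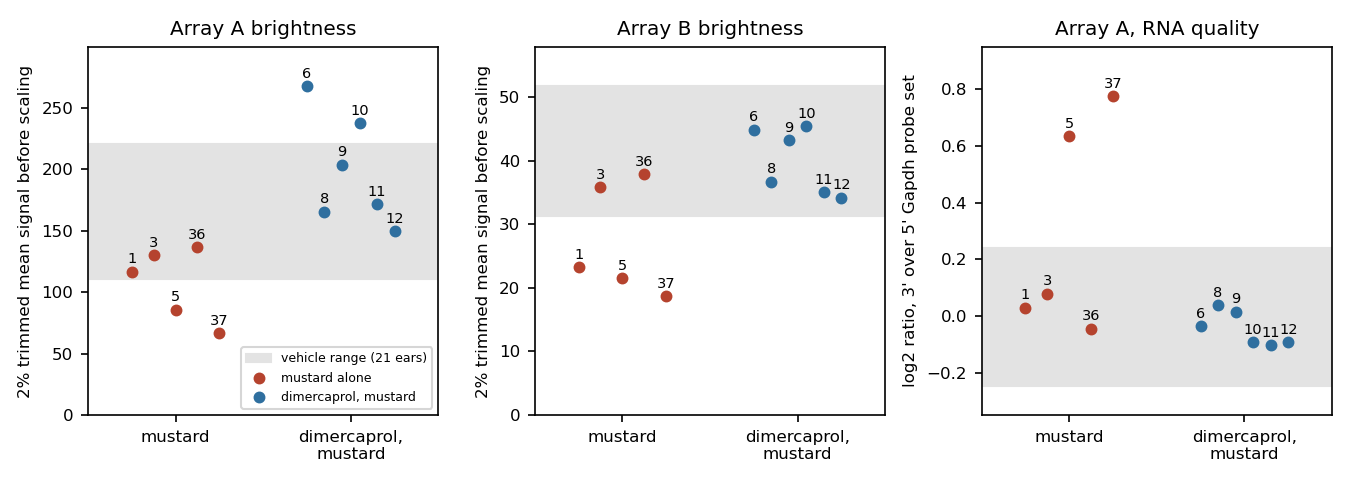
Brightness of array A and of array B (trimmed mean signal before scaling, linear axis) and the 3' over 5' signal ratio of Gapdh on array A (log2), 1 point per ear for the 5 mustard ears and 6 pretreated ears, with the range of the 21 vehicle ears as a grey band. On array A every mustard ear lies below every pretreated ear, and mustard ears 5 and 37 stand apart in both brightness and Gapdh ratio.

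The ears within a group also differed in how far they lay from the vehicle ears. Mustard ear 36 was the mustard ear nearest to the pretreated group for 2360 of the 3601 called genes (65.5%), against 599 (16.6%) for ear 1 and 123 (3.42%) for ear 37. Among the pretreated ears, ear 12 was nearest to the mustard group for 1392 (38.7%) and ear 8 for 752 (20.9%), against 229 (6.36%) for ear 9. Leaving out mustard ear 36 made the difference over 1.5 times larger in 11 of the 146 called genes named, and leaving out pretreated ear 12 in 3. Of the 146, 59 have another measured probe set, and in 32 of these at least 1 other was not called. The arrays read whole biopsies, in which fewer cells of a type and less RNA per cell cannot be told apart.

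The CXC chemokines open the account because 3 of them, the neutrophil attractants Cxcl1, Cxcl2 and Cxcl3, fell furthest among the chemokines measured and share one stretch of kappaB letters, the sequence NF-kappaB binds, just before the gene start. The 150 bases before each start are printed from RefSeq (GRCm38.p6, forward strand), with that stretch in capitals; they lie at chr5:90891095-90891244 for Cxcl1, chr5:90903749-90903898 for Cxcl2 and chr5:90785951-90786100 for Cxcl3.
Cxcl1: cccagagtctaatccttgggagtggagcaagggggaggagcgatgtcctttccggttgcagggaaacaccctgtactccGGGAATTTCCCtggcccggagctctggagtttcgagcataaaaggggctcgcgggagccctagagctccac
Cxcl2: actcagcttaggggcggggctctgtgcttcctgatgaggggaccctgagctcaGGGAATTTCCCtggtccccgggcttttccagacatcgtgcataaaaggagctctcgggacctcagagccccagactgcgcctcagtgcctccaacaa
Cxcl3: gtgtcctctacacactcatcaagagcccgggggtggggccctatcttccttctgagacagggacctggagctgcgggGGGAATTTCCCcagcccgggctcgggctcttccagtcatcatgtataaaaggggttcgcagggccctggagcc

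The stretch GGGAATTTCCC is the whole of the kappaB match in each, 11 bases long, and lies 71 to 61 bases before the start of Cxcl1, 97 to 87 before Cxcl2 and 73 to 63 before Cxcl3. Searched on both strands in the 250 bases before each start, it was found in 14 of 32851 RefSeq windows (0.0426%). The stretch was read from these 3 promoters, which are all of its matches among the 1485 windows of lower genes (0.202%), so that share is a description. Among the windows of genes not called, 3 of 11443 (0.0262%) held it, and among 2303 windows of higher genes 0 did. The broader kappaB consensus was found in 3.9% of all windows, in 5.12% of those of lower genes, in 4.56% of those of higher genes and in 4.4% of those of genes not called. The AP-1 motif TGANTCA, searched on both strands, was found in 6.75% of all windows, 6.4% of those of lower genes, 5.21% of those of higher genes and 5.12% of those of genes not called, and it occurred once each before Mmp10, Serpinb7, Cxcl10, Mt2 and Ppbp, of the promoters examined. A match describes letters only and is no evidence of binding.

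Cxcl1 had a scaled signal of 1533, 1557, 1918, 141 and 1997 in mustard ears 1, 3, 5, 36 and 37, and of 7.9 to 413 (median 68.8) in the pretreated ears. The 2 groups overlapped only through mustard ear 36 and pretreated ears 8 (144) and 12 (413), and the vehicle ears read 5.6 to 70.6. The difference was -3.64 ± 0.60 (adjusted p = 3.36e-05); most pretreated signals are near the floor, and it was -2.98 with 64 added in place of 16. It was -4.34 without mustard ear 36, and -3.06 (adjusted p = 0.00603) without mustard ears 5 and 37; with brightness as a covariate it missed the threshold (adjusted p = 0.068).

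Cxcl3, read on array B, had a scaled signal of 425, 1330, 1437, 93.7 and 3083 in mustard ears 1, 3, 5, 36 and 37 and 7.7 to 87.7 (median 38.6) in the pretreated ears. Every pretreated ear was below every mustard ear, and the pretreated range lay within that of the vehicle ears (9.1 to 151) apart from its lowest value. The difference was -3.92 ± 0.65 (adjusted p = 4.26e-05). Cxcl2 fell by 3.85 ± 0.64 on the log2 scale (adjusted p = 3.61e-05), from 123 to 5645 after mustard alone to 50.1 to 140 after pretreatment, with ear 36 again inside the pretreated range. Without mustard ear 36 Cxcl2 and Cxcl3 had -4.66 and -4.63. Without mustard ears 5 and 37, Cxcl2 (-2.72, adjusted p = 0.0116) and Cxcl3 (-2.96, adjusted p = 0.0131) stayed past the threshold, as they did with brightness as a covariate.

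Of the 10 CXC chemokines measured, 4 were lower in the pretreated ears and 0 higher (0 unadjusted), with a median of -0.32 (0.29 without rescaling, against 0.63 for all genes). The fourth, the B cell attractant Cxcl13, had -0.80 ± 0.26 (adjusted p = 0.0214), and it was not past the threshold without mustard ears 5 and 37 (adjusted p = 0.283), without mustard ear 5, mustard ear 37 or pretreated ear 6 alone (adjusted p = 0.073, 0.0721 and 0.0533), and read 0.04 without rescaling. Among 10 CC chemokines 2 were lower and 1 higher. Among 18 genes of the interleukin 1 family 3 were lower and 5 higher.

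Il1b, the inflammatory cytokine interleukin 1 beta, had a scaled signal of 573, 1223, 1590, 244 and 3549 in mustard ears 1, 3, 5, 36 and 37. The pretreated ears read 113 to 235 (median 173) and all lay below the mustard ears, close to the vehicle ears (105 to 296, median 171). The difference was -2.48 ± 0.38 (adjusted p = 1.59e-05), and -1.66 (adjusted p = 0.00495) without mustard ears 5 and 37. The 4 ears given dimercaprol without mustard read 245 to 367. The genes of the family that were higher included Il1f5, an antagonist of the interleukin 36 branch (0.84 ± 0.22, adjusted p = 0.00333), the co-receptor Il1rap (0.53, adjusted p = 0.00617, but -1.43 and called lower in another probe set on array B) and the alarmin Il33 (0.51, adjusted p = 0.00835). Il1f5 was not past the threshold without mustard ears 5 and 37 (adjusted p = 0.151). Il1rn, the soluble receptor antagonist, was 387 to 684 after mustard alone and 606 to 789 after pretreatment, a difference of 0.30 ± 0.14 (adjusted p = 0.11).

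Receptors and feedback genes of the cytokine pathways were next. Of 18 genes of the interleukin 6 family and its Jak-Stat feedback, 7 were lower and 3 higher. Osmr, the oncostatin M receptor, had 1034, 1162, 1267, 562 and 1135 in mustard ears 1, 3, 5, 36 and 37 against 402 to 564 (median 441) in the pretreated ears, which overlapped only at ear 36. Its difference was -1.07 ± 0.19 (adjusted p = 7.68e-05). Socs3, the inhibitor induced by Stat3, was lower at -1.49 ± 0.28 (adjusted p = 0.000152). Il4ra, the interleukin 4 receptor chain, was lower at -1.61 ± 0.27 (adjusted p = 4.23e-05), from 243 to 751 to 98.7 to 241 with no overlap.

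Of 25 genes of tumour necrosis factor signalling and NF-kappaB feedback, 9 were lower and 1 higher, with a median of -0.31 (0.44 without rescaling). Without mustard ears 5 and 37 the count was 3 lower and 0 higher (1 unadjusted). Adding brightness as a covariate left 0 of the 25 called (5 lower and 0 higher unadjusted). Icam1, the leukocyte adhesion receptor, fell by 1.10 (adjusted p = 0.000355) and was on average 0.90 above the vehicle ears (adjusted p = 0.000923). Pretreated ears 6 and 11 lay within the vehicle range for Icam1 (129 to 286). The lipopolysaccharide co-receptor Cd14 fell by 1.31 (adjusted p = 0.000154). The NF-kappaB subunit Rela had -0.67 (adjusted p = 0.00044) and 0.23 without rescaling. Tnf itself was 62.1 to 187 after mustard alone and 40.8 to 170 after pretreatment, -0.47 ± 0.39, which did not pass (adjusted p = 0.399).

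Of 12 AP-1 subunits measured, 8 fell and 0 rose (0 unadjusted), with a median of -0.84 (0.06 without rescaling, against 0.63 for all genes). Without mustard ears 5 and 37, 7 of 12 fell. Against the shared vehicle ears, 8 of the 12 were higher after mustard alone and 0 were called in the pretreated ears, where 0 were past an unadjusted p of 0.05 in either direction. With brightness as a covariate 0 of the 12 were called (4 lower and 0 higher unadjusted), and the median was -0.42.

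Fosl1, the Fos-related subunit of AP-1 that responds to growth factors, had 899, 1497, 1055, 321 and 1036 in mustard ears 1, 3, 5, 36 and 37. The pretreated ears read 81.3 to 406 (median 218), so that only mustard ear 36 lay inside their range, and the vehicle ears read 30.5 to 241. The difference was -1.97 ± 0.37 (adjusted p = 0.000124). Jun fell by 1.09 ± 0.21 (adjusted p = 0.000173), and its pretreated ears (689 to 1033) lay within the vehicle range (583 to 1124). Mustard ears 1, 3, 5, 36 and 37 read 1046, 3031, 1478, 922 and 3541 for Jun, so ears 1 and 36 also lay within the vehicle range. Junb, Mafk and Maff were lower, at -1.07, -0.98 and -2.02 (adjusted p = 0.000573, 0.000775 and 0.00157). Jund had -0.69 (adjusted p = 0.00492), and 0.22 without rescaling. Atf3, a stress-induced partner, had -1.55 ± 0.59 (adjusted p = 0.047); leaving out any one of 7 ears put its adjusted p at 0.057 to 0.141.

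Of 32 immediate early genes and their feedback inhibitors, 11 were lower and 2 higher, with a median of -0.48 (0.26 without rescaling). Phlda1, a pleckstrin homology protein induced by growth factors, had 2293, 4691, 3178, 727 and 4587 in mustard ears 1, 3, 5, 36 and 37 and 195 to 899 (median 324) in the pretreated ears. Mustard ear 36 alone lay within the pretreated range. Phlda1 fell by 2.79 ± 0.40 (adjusted p = 1.21e-05).

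Ier5l, an immediate early gene, separated the groups fully, with 813, 1484, 980, 744 and 1191 in mustard ears 1, 3, 5, 36 and 37 against 229 to 564 (median 352) in the pretreated ears. Its difference was -1.48 ± 0.20 (adjusted p = 8.56e-06) and -1.41 without mustard ears 5 and 37 (adjusted p = 0.0018). Dusp6, the phosphatase that dampens Erk, had -1.28 ± 0.28 (adjusted p = 0.000824), Ier3 -1.22 (adjusted p = 4.84e-05) and Zfp36, which destabilises cytokine messages, -1.02 (adjusted p = 0.000152). With brightness as a covariate 3 of the 32 genes were called lower and 0 higher (1 unadjusted). Phlda1, Ier5l and Ier3 stayed past the threshold in that fit.

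**Figure D2:**
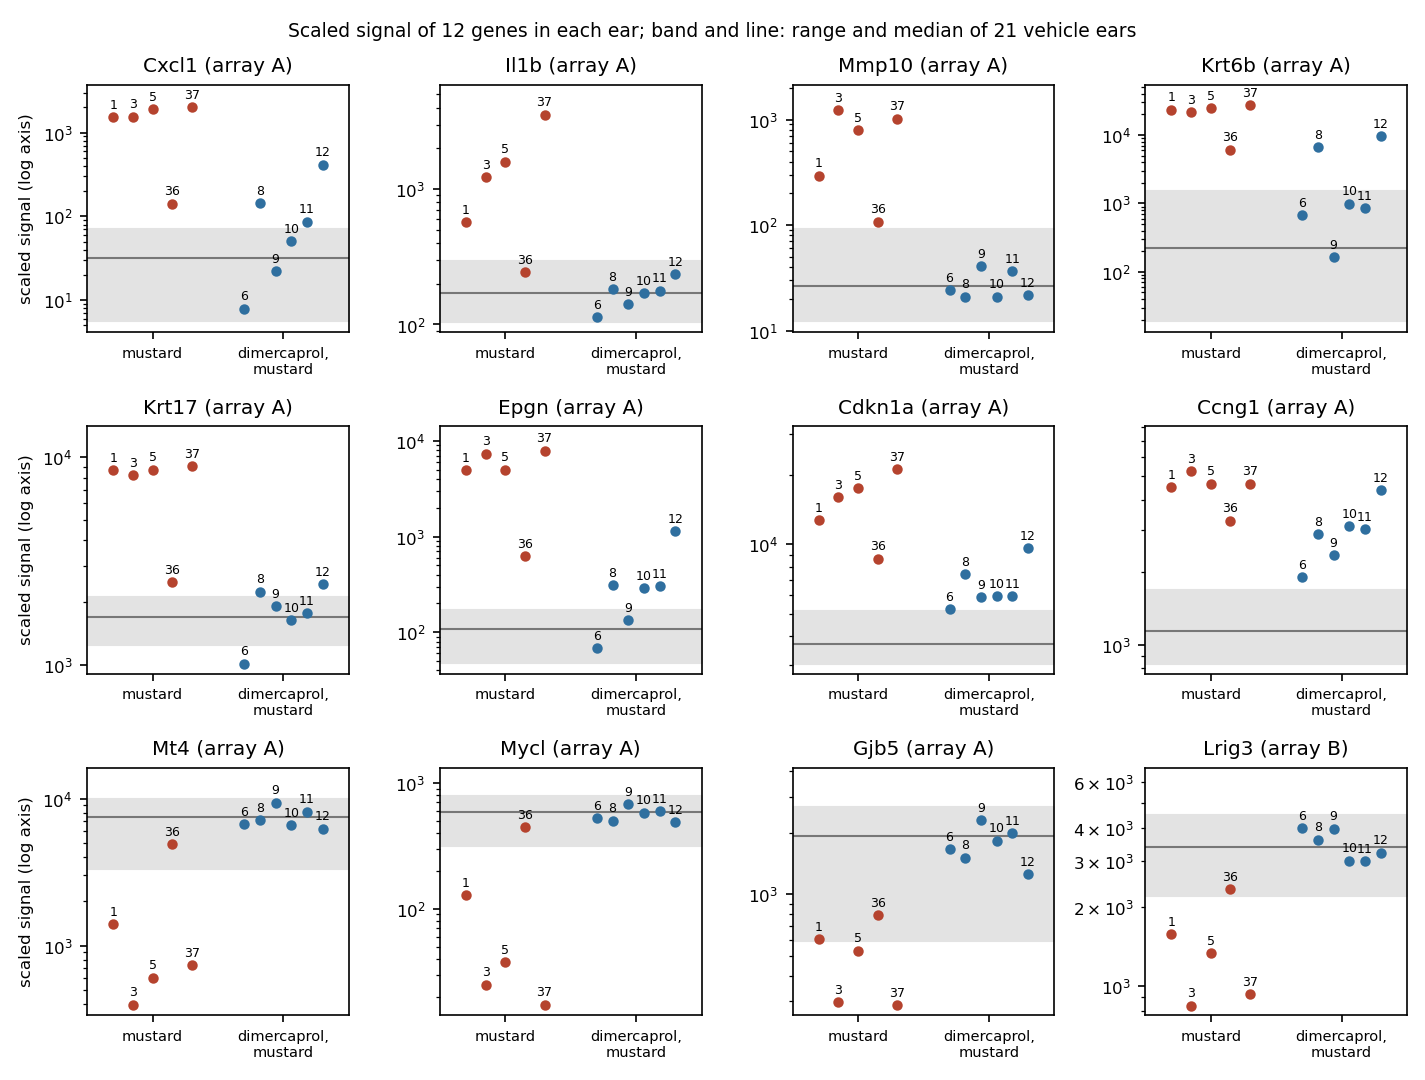
Scaled signal (log axis) of 12 genes in each of the 5 mustard ears and 6 pretreated ears, with the range of the vehicle ears as a band and their median as a line. Cxcl1, Il1b, Mmp10, Krt6b, Krt17, Epgn, Cdkn1a and Ccng1 are lower and Mt4, Mycl, Gjb5 and Lrig3 higher in the pretreated ears. Mustard ear 36 is the mustard ear nearest to the pretreated ears for all 12 genes.

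Among the ligands of the EGF receptor, 3 of 7 were lower and 1 higher, and the induced ligands moved opposite to betacellulin. Epgn, epigen, had 4994, 7389, 5045, 622 and 7960 in mustard ears 1, 3, 5, 36 and 37 and 68.4 to 1144 (median 297) in the pretreated ears. Only mustard ear 36 lay inside the pretreated range, and the vehicle ears read 47.8 to 172. The difference was -3.82 ± 0.56 (adjusted p = 1.21e-05), -4.48 without mustard ear 36 and -3.36 without mustard ears 5 and 37 (adjusted p = 0.00273). Hbegf, heparin-binding EGF, fell by 2.23 ± 0.42 (adjusted p = 0.000154), from 467 to 3598 to 199 to 872. Btc, betacellulin, rose by 0.79 ± 0.19 (adjusted p = 0.00214): the mustard ears read 282 to 399 and all pretreated ears lay above them at 458 to 768, still 0.52 below the vehicle ears (adjusted p = 0.0412).

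On the receptor side 2 of 10 genes were higher and 2 lower. Lrig3, a leucine-rich repeat membrane protein read on array B, had 1569, 839, 1328, 2337 and 928 in mustard ears 1, 3, 5, 36 and 37. The pretreated ears read 2997 to 3994 (median 3418), all above the mustard ears and near the vehicle median of 3391. The difference was 1.39 ± 0.18 (adjusted p = 3.19e-06), and 1.23 (adjusted p = 0.000944) without mustard ears 5 and 37. Egfr, the receptor, had -0.53 ± 0.18 (adjusted p = 0.0239), with overlap between 893 to 1341 and 648 to 1012. The Egfr difference no longer passed with mustard ears 5 and 37 left out (adjusted p = 0.289) and without mustard ear 5, mustard ear 37 or pretreated ear 9 alone (adjusted p = 0.0746, 0.0804 and 0.0597), and the difference was 0.36 without rescaling. The brightest Egfr probe set of array B had 0.35 and was not called (adjusted p = 0.069).

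Of 25 p53 arrest and feedback genes measured, 12 fell and 2 rose, with a median of -0.56 (0.35 without rescaling, against 0.63 for all genes), 6 fell without mustard ears 5 and 37, and 4 fell with brightness as a covariate. Against the shared vehicle ears, 18 of the 25 were higher after mustard alone with a median of 0.98, and 13 were higher in the pretreated ears with a median of 0.52. The background of higher calls in that last comparison was 1.61%.

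Cdkn1a, the p21 inhibitor of cyclin-dependent kinases, had 12759, 16008, 17484, 8644 and 21126 in mustard ears 1, 3, 5, 36 and 37 and 5221 to 9645 (median 5962) in the pretreated ears. Only pretreated ear 12 reached the mustard range, and no pretreated ear was inside the vehicle range of 3027 to 5146. The difference was -1.15 ± 0.17 (adjusted p = 1.53e-05), which leaves 0.77 above the vehicle ears (adjusted p = 0.000196). Plk2, a p53-induced kinase, fell by 1.30 ± 0.21 (adjusted p = 3.33e-05), with 1933 to 4853 after mustard alone, 1142 to 2346 after pretreatment and 498 to 822 in the vehicle ears. Mdm2, which targets p53 for degradation, fell by 1.08 ± 0.23 (adjusted p = 0.000598). The pretreated ears read 606 to 1698 for Mdm2, all above the vehicle ears (321 to 563), with ear 12 highest and within the mustard range of 1094 to 2449.

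Ccng1, cyclin G1, stayed high in every pretreated ear. The pretreated ears read 1904 to 4367 (median 2942), every one above every vehicle ear (832 to 1684), and the mustard ears 3271 to 5260. Ccng1 was 1.28 above the vehicle ears in the pretreated ears (adjusted p = 5.65e-09) and 1.92 above them after mustard alone. The difference between the treated groups was -0.63 ± 0.17 (adjusted p = 0.00554), which missed the threshold without mustard ears 5 and 37 (-0.58, adjusted p = 0.0678) and read 0.28 without rescaling. Trp53inp1, a p53-induced nuclear protein, had 2793 to 3739 after mustard alone and 1753 to 2984 after pretreatment, -0.56 ± 0.25, which did not pass (adjusted p = 0.0936), and its pretreated ears were 1.26 above the vehicle ears (adjusted p = 2.98e-05). Sesn2 had -0.49 ± 0.17 (adjusted p = 0.0312), with no overlap between 645 to 1057 and 440 to 637. Sesn2 no longer passed with mustard ears 5 and 37 left out (adjusted p = 0.122) and without mustard ear 3, mustard ear 5 or pretreated ear 6 alone (adjusted p = 0.133, 0.07 and 0.0783), and the difference was 0.37 without rescaling. Sesn1, the related sestrin, was one of the 2 genes that rose (0.98 ± 0.23, adjusted p = 0.00125), from 396 to 745 to 821 to 1254 with no overlap.

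Phlda3, an Akt inhibitor, had -0.65 (adjusted p = 0.00454; 0.26 without rescaling; adjusted p = 0.0803 without mustard ears 5 and 37) and stayed 0.76 above the vehicle ears. Btg2, an antiproliferative factor, had -0.65 (adjusted p = 0.000937; 0.24 without rescaling). Rprm, reprimo, fell by 1.39 (adjusted p = 0.00078). Among 17 p53 apoptosis genes 4 were lower and 2 higher, and 0 were called without mustard ears 5 and 37 (2 higher and 5 lower unadjusted). Pmaip1, the BH3-only protein Noxa, had -1.48 ± 0.37 (adjusted p = 0.00249; adjusted p = 0.0575 without mustard ears 5 and 37); its pretreated ears (170 to 380) were all above the vehicle ears (34.1 to 167). Aen, an apoptosis-enhancing nuclease, had -0.56 (adjusted p = 0.00506; 0.34 without rescaling; adjusted p = 0.0811 without mustard ears 5 and 37) and stayed 1.10 above the vehicle ears (adjusted p = 8.95e-09).

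**Figure D3:**
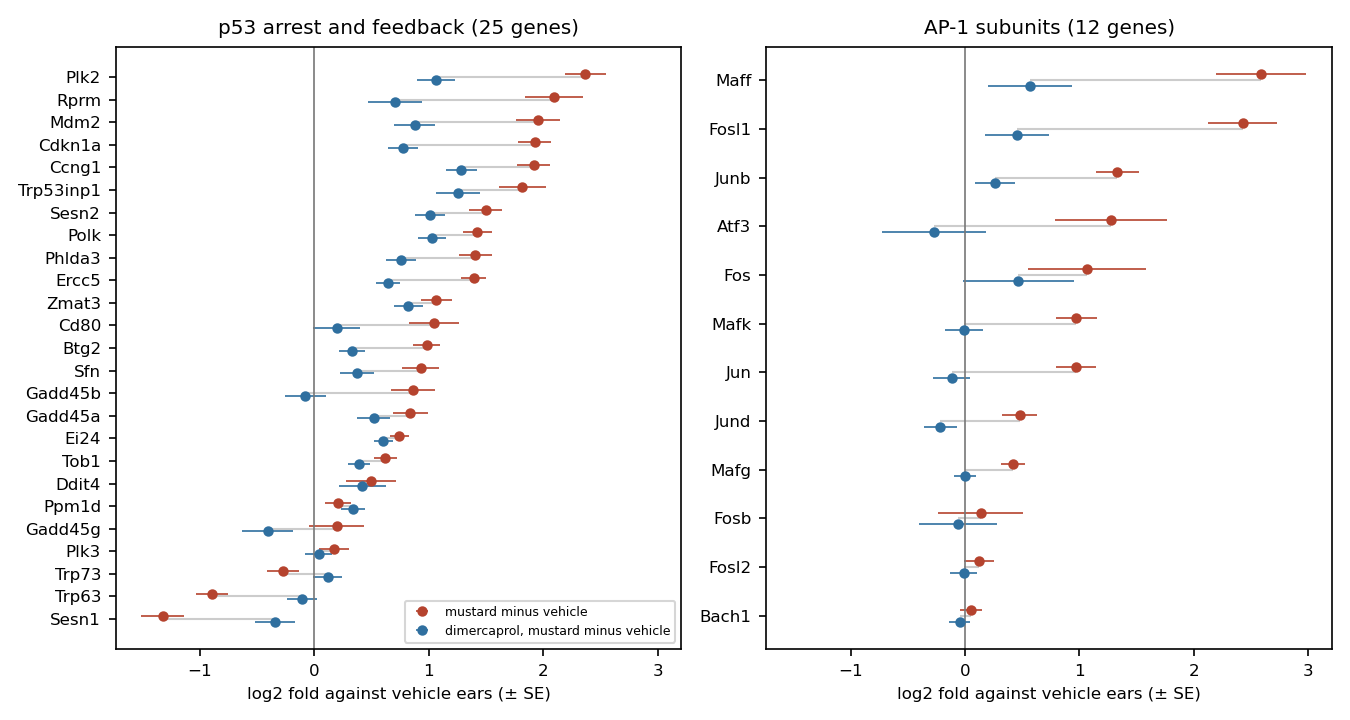
Difference from the vehicle ears (log2, with the SE of the fit) after mustard alone and after dimercaprol and mustard for 25 p53 arrest and feedback genes and 12 AP-1 genes; both comparisons share the vehicle ears. After pretreatment 13 of the 25 p53 genes are called above the vehicle ears and 0 of the 12 AP-1 genes are (0 unadjusted).

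Of 41 crosslink, excision and recombination repair genes, 5 were higher and 4 lower, with a median of 0.00. Ercc1, part of the nuclease that cuts crosslinks, fell by 1.13 ± 0.23 (adjusted p = 0.000356): mustard ears 1, 3, 5 and 37 read 994 to 1157, while mustard ear 36 (436) lay inside the pretreated range of 324 to 510. Ercc5, a nucleotide excision nuclease, had -0.75 (adjusted p = 8.93e-05) and 0.13 without rescaling, and remained 0.64 above the vehicle ears. Brca2 had -0.74 (adjusted p = 0.000194) and 0.12 without rescaling. Xpa, the damage-verifying factor of excision repair, rose by 0.78 (adjusted p = 0.00191).

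Of 26 genes of G2/M and mitosis 3 were higher and 0 lower (1 unadjusted) in the pretreated ears, with a median of 0.24, and 1 was higher without mustard ears 5 and 37. Against the shared vehicle ears, 17 of the 26 were lower after mustard alone (median -0.44) and 6 in the pretreated ears (median -0.31). Ccnb2, the mitotic cyclin B2, had 45, 66, 14.6, 251 and 41.4 in mustard ears 1, 3, 5, 36 and 37 and 101 to 209 (median 183) in the pretreated ears, so mustard ear 36 was the highest of all 11. The difference of 1.27 ± 0.28 (adjusted p = 0.000738) missed the threshold without mustard ears 5 and 37 (adjusted p = 0.0989), and the pretreated ears were 0.76 below the vehicle ears on the same scale. Prc1, a regulator of cytokinesis, rose by 0.78 (adjusted p = 0.00429). Of 29 genes of DNA replication and G1/S 2 were higher and 0 lower (2 unadjusted).

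The genes of wound-activated keratinocytes had the lowest median of the lists described here. Of 30 measured, 25 fell and 1 rose, with a median of -1.82 (-0.90 without rescaling), and without mustard ears 5 and 37, 17 fell and 0 rose (1 unadjusted) with a median of -1.59. With brightness as a covariate 8 fell. Against the shared vehicle ears 26 were higher after mustard alone with a median of 2.99, and 14 were higher in the pretreated ears with a median of 0.96. The list median of each ear above the vehicle mean was 3.22, 3.44, 3.34, 1.06 and 3.38 in mustard ears 1, 3, 5, 36 and 37, and 0.33, 1.71, 0.33, 0.55, 0.60 and 2.07 in pretreated ears 6, 8, 9, 10, 11 and 12, against -0.40 to 0.52 in the vehicle ears. Pretreated ears 8 and 12 were therefore above mustard ear 36, and ears 6 and 9 were inside the vehicle range.

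**Figure D4:**
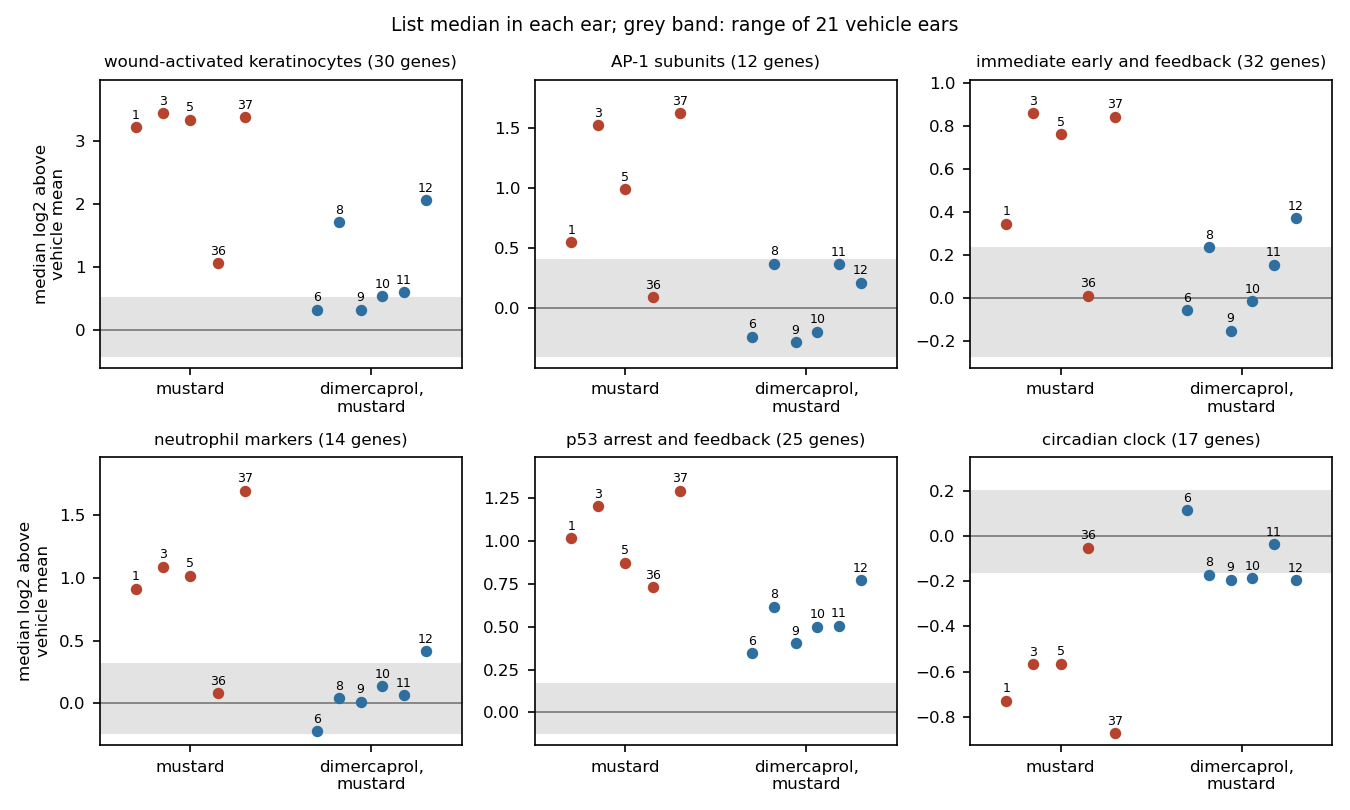
Median log2 difference from the vehicle mean over the genes of 6 lists in each mustard ear and pretreated ear, with the range of the vehicle ears as a band. For wound-activated keratinocytes mustard ear 36 (1.06) lies below pretreated ears 8 (1.71) and 12 (2.07), and for the p53 arrest genes all 6 pretreated ears lie above the vehicle range.

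Krt6b, a keratin of activated epidermis, had 23500, 21297, 24379, 6113 and 27097 in mustard ears 1, 3, 5, 36 and 37. The pretreated ears spread from 163 (ear 9) to 9621 (ear 12), with ear 8 at 6646 and the other pretreated ears at 675 to 994. The difference was -3.72 ± 0.74 (adjusted p = 0.000262), and -3.13 without pretreated ear 9. The pretreated ears were on average 2.71 above the vehicle ears (adjusted p = 0.00249), which read 19 to 1533. Only pretreated ears 8 and 12 lay above that range. Krt17 separated the groups fully. Its mustard ears read 8691, 8236, 8714, 2498 and 9072 in the same order and the pretreated ears 1013 to 2448 (median 1847), near the vehicle ears (1248 to 2114). The difference was -1.92 ± 0.24 (adjusted p = 2.87e-06), and -1.66 (adjusted p = 0.0018) without mustard ears 5 and 37. Krt16 and Krt6a were lower at -3.18 ± 0.57 and -2.38 (adjusted p = 8.29e-05 and 2.4e-05) and were on average 2.46 and 1.07 above the vehicle ears. Pretreated ears 6, 10 and 11 lay within the vehicle range for Krt16 (120 to 988). For Krt6a, ears 6, 9, 10 and 11 did (862 to 3150). With brightness as a covariate Krt17 and Krt6a stayed past the threshold, and Krt6b (adjusted p = 0.135) and Krt16 (adjusted p = 0.0699) did not.

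The antimicrobial and calcium-binding products of activated epidermis followed the same pattern over ears. S100a8, a subunit of calprotectin that neutrophils also carry, had 16493, 14936, 20457, 2714 and 19922 in mustard ears 1, 3, 5, 36 and 37 and 214 to 9626 (median 346) in the pretreated ears. Its difference was -3.97 ± 0.65 (adjusted p = 3.02e-05), and that of its partner S100a9 was -3.82 (adjusted p = 4.31e-05). Defb3, an inducible beta-defensin, had 577 to 7000 after mustard alone and 47.6 to 3682 (median 110) after pretreatment, -3.78 ± 0.72 (adjusted p = 0.000155). Also lower were the cornified envelope gene Sprr2f (-3.28, adjusted p = 0.000106), the protease inhibitor Slpi (-2.84, adjusted p = 6.56e-05) and the stefin Stfa3 (-2.46, adjusted p = 2.48e-05). Without mustard ear 36, S100a9, Defb3, Sprr2f and Slpi had -4.51, -4.39, -3.97 and -3.47, and without pretreated ear 12, S100a8, S100a9 and Defb3 had -4.70, -4.50 and -4.57. Defb6, a constitutive beta-defensin, went the other way: the mustard ears read 2072 to 3736 and all pretreated ears lay above them at 4629 to 7470, as in the vehicle ears (4724 to 6994). Defb6 rose by 1.08 ± 0.13 (adjusted p = 2.87e-06) and by 0.93 without mustard ears 5 and 37 (adjusted p = 0.0018).

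Genes of ordinary epidermal differentiation went in both directions. Of 47 genes of the granular and cornified layer 11 were lower and 10 higher, with a median of 0.03. Lce1m, a late envelope protein read on array B, rose by 1.81 ± 0.34 (adjusted p = 0.000159), while the kallikreins Klk6 and Klk13 were lower at -1.20 and -1.35 (adjusted p = 0.00122 and 0.000524). Lce1m read 8818, 5974, 3962, 15955 and 1088 in mustard ears 1, 3, 5, 36 and 37 and 14114 to 23286 in the pretreated ears, with only ear 36 among the pretreated values. Of 25 keratinocyte lineage factors 10 rose and 2 fell, with a median of 0.34. Without mustard ears 5 and 37, 3 rose and 1 fell. Adding brightness as a covariate left 0 called (8 higher and 0 lower unadjusted). Trp63, the master factor of stratified epithelium, rose by 0.79 ± 0.17 (adjusted p = 0.000501), Gata3 by 1.09 (adjusted p = 0.000406) and Grhl1, a grainyhead barrier factor, by 0.89 (adjusted p = 0.000254). Of 25 genes of the basal layer and its anchors 3 rose and 2 fell, among them Col4a5, a basement membrane collagen (1.03, adjusted p = 0.000606), and the laminin receptor subunit Itga3 (-1.06, adjusted p = 0.000166).

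Junction genes also split. Of 25 genes of desmosomes, gap and tight junctions 11 were higher and 6 lower, with a median of 0.28, and 8 were higher and 1 lower without mustard ears 5 and 37. Gjb5, a connexin of gap junctions, had 606, 298, 531, 792 and 288 in mustard ears 1, 3, 5, 36 and 37, and all pretreated ears lay above them at 1257 to 2302 (median 1746), with the vehicle ears at 590 to 2664. Gjb5 rose by 1.85 ± 0.29 (adjusted p = 1.78e-05) and by 1.69 (adjusted p = 0.00278) without mustard ears 5 and 37. Gjb2, another connexin, fell by 1.60 ± 0.29 (adjusted p = 9.32e-05), from 1630 to 7655 to 982 to 2319, with only ear 36 inside the pretreated range. Gjb6, also a connexin, had -1.36 (adjusted p = 0.00447; adjusted p = 0.0623 without mustard ears 5 and 37).

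Several tight junction and desmosome genes rose. Ocln, occludin, read 248 to 600 after mustard alone and 690 to 980 after pretreatment, with no overlap (1.10 ± 0.18, adjusted p = 3.43e-05). The claudins Cldn23, Cldn1 and Cldn8 rose by 1.65, 0.91 and 1.38 (adjusted p = 0.000154, 0.000196 and 0.00145), and the desmosomal cadherin Dsg1a, read on array B, by 1.30 ± 0.24 (adjusted p = 0.000152). For Dsg1a the mustard ears read 4016 to 11733 and the pretreated ears 15716 to 19799.

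Of 23 matrix proteases and plasminogen genes 5 fell and 2 rose. Mmp10, stromelysin 2 of migrating keratinocytes, had 295, 1220, 797, 108 and 1017 in mustard ears 1, 3, 5, 36 and 37. The pretreated ears read 20.9 to 40.7 (median 23.0), every one below every mustard ear and close to the vehicle median of 26.4. All pretreated values are near the floor, so the size of the difference depends on the value added: it was -3.61 ± 0.53 (adjusted p = 1.21e-05), -2.70 with 64 added, and -3.08 (adjusted p = 0.00319) without mustard ears 5 and 37.

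Of 20 serpins and stefins 7 fell and 4 rose. Serpinb7, an intracellular serpin of the epidermis, read 350 to 1329 after mustard alone and 1830 to 3026 after pretreatment, with no overlap. In the clotting pathway F3, tissue factor, had 464, 366, 203, 454 and 197 in mustard ears 1, 3, 5, 36 and 37, and all pretreated ears lay above them at 738 to 1360 (median 1124). F3 rose by 1.70 ± 0.31 (adjusted p = 0.000117), and the endothelial protein C receptor Procr fell by 1.74 (adjusted p = 0.000219). Thbs1, thrombospondin 1, read 332 to 470 after mustard alone and 563 to 1011 after pretreatment (0.85 ± 0.19, adjusted p = 0.000728).

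**Figure D5:**
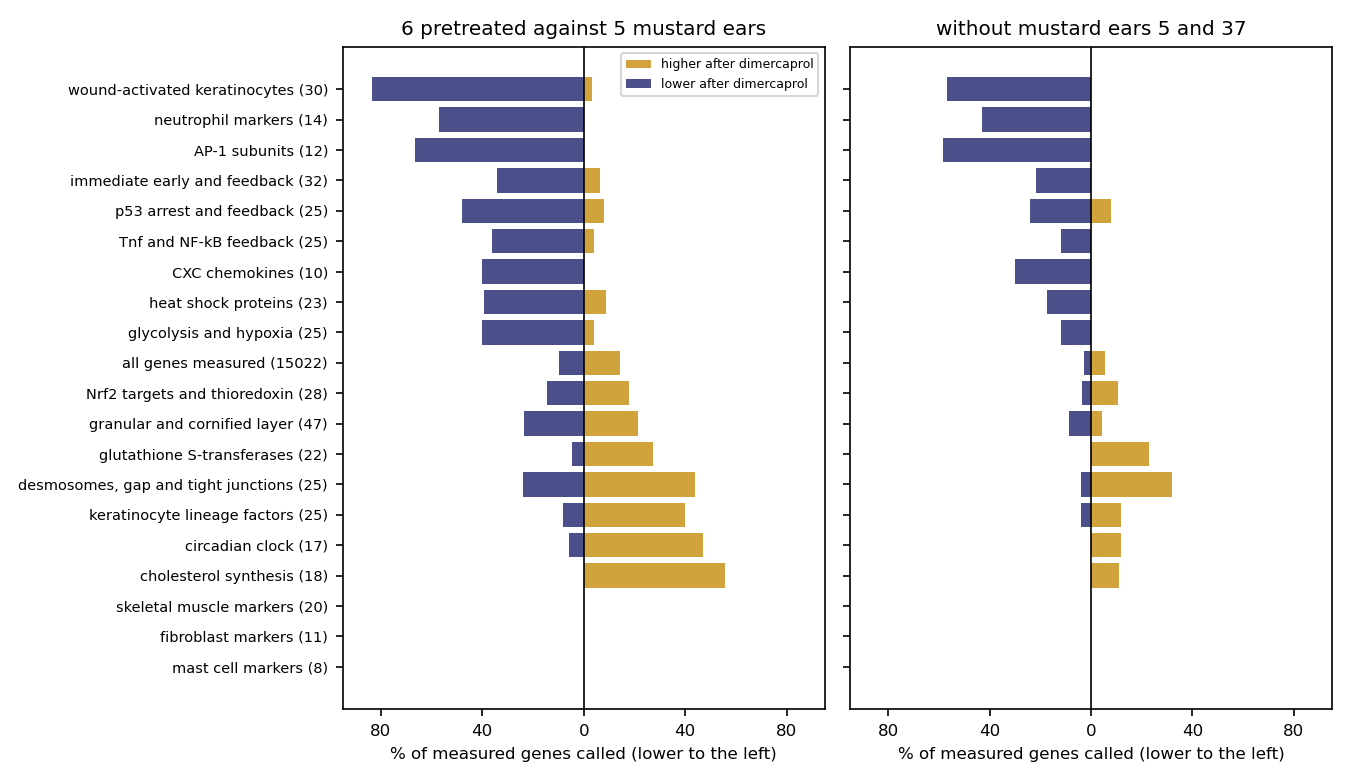
Percent of the measured genes of each list called higher or lower in the pretreated ears than after mustard alone, with all 11 ears and without mustard ears 5 and 37, beside all genes (14.3% higher and 9.63% lower with all ears). Wound-activated keratinocytes (25 of 30 lower) and AP-1 subunits (8 of 12 lower) stand beside circadian clock genes (8 of 17 higher) and cholesterol synthesis (10 of 18 higher).

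Dimercaprol binds metals, so the metallothioneins and metal transporters were examined. Mt1 and Mt2 are the inducible zinc-binding metallothioneins and Mt4 is the form of stratified epithelium. Mt1 read 4575, 3338, 6300, 3967 and 4801 in mustard ears 1, 3, 5, 36 and 37 and 2878 to 6509 (median 3833) in the pretreated ears, which overlapped fully. Its difference was -0.10 ± 0.23 (95% interval -0.56 to 0.36, adjusted p = 0.79). The 4 ears given dimercaprol alone read 4538 to 5931, the ethanol ears 4835 to 6769, the naive ears 3060 to 4241 and the vehicle ears 2952 to 8787. Mt2 had -0.53 ± 0.16 (adjusted p = 0.0122); it did not pass with mustard ears 5 and 37 left out (adjusted p = 0.31), without mustard ear 5 or 37 alone (adjusted p = 0.0568 and 0.0571), and the difference was 0.38 without rescaling.

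Mt4 differed most of these, with 1403, 397, 606, 4880 and 741 in mustard ears 1, 3, 5, 36 and 37, all below the pretreated ears at 6236 to 9361 (median 6940). The vehicle ears read 3302 to 9879 and the ears with dimercaprol alone 6678 to 8214. Without mustard ears 5 and 37 the difference was 2.36 (adjusted p = 0.00319). The metal response core TGCNCNC, searched on both strands, was found in 44.4% of all windows of 250 bases and 4 times before Mt4, 5 times before Mt2 and once each before Mt1 and Mt3. Of 23 metallothionein and zinc transport genes 2 were higher and 2 lower.

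Of 26 iron and copper genes 6 rose and 2 fell. Slc40a1, the iron exporter ferroportin, had 440, 315, 296, 840 and 318 in mustard ears 1, 3, 5, 36 and 37 against 1041 to 1460 (median 1384) in the pretreated ears, with no overlap, and it rose by 1.63 ± 0.26 (adjusted p = 2.21e-05). Scara5, a ferritin receptor, and Heph, a ferroxidase, rose by 1.54 and 0.87 (adjusted p = 0.000356 and 0.00107). Lcn2, lipocalin 2, which binds bacterial siderophores, had 1988, 1868, 3130, 895 and 1789 in mustard ears 1, 3, 5, 36 and 37 and 178 to 769 (median 369) in the pretreated ears. The pretreated ears lay below all mustard ears and were on average 1.26 above the vehicle ears (55.3 to 334). Pretreated ears 6, 10 and 11 lay within that vehicle range. Lcn2 fell by 2.34 ± 0.38 (adjusted p = 3.14e-05).

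Thiol-reactive agents are known to induce Nrf2 targets. Of 28 Nrf2 and thioredoxin genes 5 rose and 4 fell, with a median of -0.12 (0.75 without rescaling). Adding brightness as a covariate left 0 called (3 higher and 5 lower unadjusted). Ephx1, microsomal epoxide hydrolase, had 1900, 2251, 2146, 2556 and 2045 in mustard ears 1, 3, 5, 36 and 37 and 1379 to 2250 (median 1532) in the pretreated ears, and only ear 12 reached the mustard range. Every pretreated ear was above every vehicle ear (609 to 900), and so was every mustard ear; mustard ear 36 was the highest of the 11 for Ephx1. The difference was -0.42 ± 0.12 (adjusted p = 0.00823; 0.48 without rescaling), which left the pretreated ears 1.13 above the vehicle ears (adjusted p = 9.56e-12), and the ears with dimercaprol alone read 640 to 893. Nqo1, the quinone reductase, did not pass at -0.39 ± 0.15 (adjusted p = 0.0512) and was 0.66 above the vehicle ears after pretreatment (adjusted p = 0.000262). Hmox1, heme oxygenase 1, did not pass either (-0.20 ± 0.16, adjusted p = 0.362).

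Cat, catalase, had 1102, 826, 921, 1508 and 771 in mustard ears 1, 3, 5, 36 and 37, and all pretreated ears lay above them at 1683 to 2830 (1.08 ± 0.19, adjusted p = 7.94e-05). Of 22 glutathione S-transferase genes 6 rose and 1 fell, with a median of 0.03, and 5 rose without mustard ears 5 and 37. In the fit with brightness as a covariate 0 were called (6 higher and 0 lower unadjusted). Those that rose with all ears and no covariate included Gsta3 (1.78, adjusted p = 0.0018), Gsta2 (1.00), Gstt3 (0.82), Mgst3 (0.77) and Gstm1 (0.76, adjusted p = 0.000188). Pretreated ear 6 read 888 for Gsta3 against 146 to 305 in the other 5 pretreated ears. Of 22 aryl hydrocarbon and xenobiotic genes 7 rose and 2 fell, among them Adh7, an alcohol dehydrogenase (1.00, adjusted p = 5.31e-05), Cyp1b1 (0.91) and the feedback gene Tiparp (-0.93).

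Genes of protein folding and energy use had negative medians against the bulk of genes. Of 23 heat shock genes 9 fell and 2 rose (median -0.33; 0.57 without rescaling), and 4 fell without mustard ears 5 and 37. Of 29 unfolded protein and amino acid response genes 10 fell and 2 rose (median -0.15; 0.69 without rescaling), and 2 fell and 1 rose without mustard ears 5 and 37. Of 25 genes of glycolysis and hypoxia 10 fell and 1 rose (median -0.38, and 0.44 without rescaling), and 3 fell without those ears. Adding brightness as a covariate left 0 genes of the heat shock, unfolded protein and glycolysis lists called. At an unadjusted p under 0.05 in that fit, 8, 7 and 3 were lower and 0, 1 and 3 higher. Hspa8, the constitutive chaperone, read 6808 to 8862 after mustard alone and 5262 to 6475 after pretreatment with no overlap (-0.46 ± 0.09, adjusted p = 0.000151), but 0.45 without rescaling, past the threshold in the other direction (adjusted p = 0.0284). Hsp90aa1 had -0.88 (adjusted p = 0.000384; 0.03 without rescaling) and Ldha, lactate dehydrogenase, -0.54 (adjusted p = 0.000522; 0.37 without rescaling).

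Lipid genes of the epidermal barrier were called higher more often than lower. Of 18 cholesterol synthesis genes 10 rose and 0 fell (1 unadjusted), with a median of 0.48. Without mustard ears 5 and 37, 2 rose with a median of 0.26, and with brightness as a covariate 1 rose with a median of 0.18. Against the shared vehicle ears 16 of the 18 were lower after mustard alone and 0 in the pretreated ears, where 9 were lower at an unadjusted p under 0.05. Stard4, a sterol carrier, read 434 to 856 after mustard alone and 963 to 1427 after pretreatment (1.00 ± 0.16, adjusted p = 3.05e-05), and Sc5d, a sterol desaturase, 232 to 418 and 530 to 686 (0.92 ± 0.17, adjusted p = 0.000156), both with no overlap. Of 35 genes of fatty acid, sebum and ceramide synthesis 8 rose and 2 fell. The ceramidases Acer1 and Asah1 rose by 1.37 ± 0.22 and 0.64 (adjusted p = 2.05e-05 and 3.14e-05).

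Of 13 lipoxygenase and leukotriene genes 4 rose and 1 fell. Alox12e, an epidermal lipoxygenase, read 569 to 1526 after mustard alone and 1960 to 4593 (median 2828) after pretreatment, all higher, and rose by 1.80 ± 0.35 (adjusted p = 0.000241). The arachidonate-releasing phospholipase Pla2g4a rose by 1.29 ± 0.20 (adjusted p = 2.02e-05), and its relative Pla2g4e, read on array B, fell by 1.00. Ltb4r1, the leukotriene B4 receptor of myeloid cells, had 1359, 1088, 1082, 482 and 1295 in mustard ears 1, 3, 5, 36 and 37 and 348 to 530 (median 432) in the pretreated ears, overlapping only at ear 36. It fell by 1.21 ± 0.20 (adjusted p = 4.11e-05).

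Of 17 circadian clock genes measured, 8 rose and 1 fell, with a median of 0.46, and 1 rose with brightness as a covariate. Without mustard ears 5 and 37, 2 rose and 0 fell (1 unadjusted), with a median of 0.29. Against the shared vehicle ears 11 were lower after mustard alone and 0 in the pretreated ears (2 unadjusted). The list medians were -0.73, -0.57, -0.56, -0.05 and -0.87 in mustard ears 1, 3, 5, 36 and 37 and -0.20 to 0.12 in the pretreated ears, so that ear 36 lay inside the pretreated range.

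Rora, a nuclear receptor of the clock, read 1715, 1265, 1463, 2177 and 980 in mustard ears 1, 3, 5, 36 and 37, and all pretreated ears lay above them at 2682 to 3968 (median 3323). Rora rose by 1.18 ± 0.16 (adjusted p = 8.56e-06) and by 0.99 (adjusted p = 0.0021) without mustard ears 5 and 37, and the repressor Nr1d2 by 0.80 (adjusted p = 0.000282). Times of treatment or biopsy were not used here. Of 11 genes of the Myc and Mxd network 3 rose and 0 fell (0 unadjusted), among them Mycl, whose mustard ears read 128, 24.9, 37.4, 442 and 17.3 in the same order and whose pretreated ears all lay above them at 490 to 676. Its difference was 2.73 ± 0.43, and 3.33 without mustard ear 36. The Myc antagonist Mxi1 rose by 0.88 (adjusted p = 3.75e-05).

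Markers of the cell types in an ear biopsy were counted in the same way. Of 21 neutrophil markers 14 were measured, 8 fell and 0 rose (1 unadjusted), with a median of -0.90 (-0.05 without rescaling, against 0.63 for all genes), and 6 fell without mustard ears 5 and 37. The 8 include S100a8, S100a9 and Lcn2, which are described above, the S100 genes among the products of activated epidermis. Whether their fall came from neutrophils, epidermis or both was not tested. The neutrophil median of each ear above the vehicle mean was 0.91, 1.09, 1.02, 0.08 and 1.70 in mustard ears 1, 3, 5, 36 and 37 and -0.22 to 0.41 in the pretreated ears. Cxcr2, Fpr1, Clec4e, Camp, Elane, Ly6g and Itgam, which are also on the list, were not above the signal filter, and the granule genes Mpo (0.26) and Mmp8 (0.23) were not called. Csf3r, the granulocyte colony-stimulating factor receptor, had 253, 394, 210, 147 and 494 in mustard ears 1, 3, 5, 36 and 37 and 48.1 to 139 (median 86.6) in the pretreated ears, with no overlap (-1.51 ± 0.35, adjusted p = 0.00125). Clec4d, a myeloid lectin, and Ngp, a neutrophil granule protein, were lower at -1.81 and -0.92 (adjusted p = 0.000137 and 0.000167). The part of neutrophil number in the lower chemokine, S100 and Il1b signals was not tested.

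Of 17 macrophage markers measured 4 fell and 0 rose (0 unadjusted), with a median of -0.26 (0.46 without rescaling), and their list medians overlapped, at -0.01 to 0.97 in the mustard ears and -0.30 to 0.52 in the pretreated ears. The lectin Clec7a had 481, 954, 771, 130 and 1347 in mustard ears 1, 3, 5, 36 and 37 and 102 to 245 (median 160) in the pretreated ears (-1.75 ± 0.34, adjusted p = 0.000188). Of 14 keratinocyte markers 5 rose and 4 fell (median -0.06, and 0.32 after quantile normalization). For mast cells (8), T cells (5), fibroblasts (11), Schwann cells (7) and skeletal muscle (20), 0 measured markers were called in either direction; at an unadjusted p under 0.05, 1 T cell marker was higher and 1 lower and 0 of the others passed. Of 11 cartilage markers 2 fell, with a median of -0.44. Hair follicle markers were 1.43 above the vehicle mean in mustard ear 36 and -0.91 to -0.30 in the other 4 mustard ears, against up to 0.79 in the pretreated ears, and 1 of 23 was called. Pretreated ear 9 stood lowest for skeletal muscle (-1.15) and for fibroblast markers (-0.89). The vehicle ears ran from -2.05 to 0.74 and from -0.56 to 0.81 for these lists.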

How the data were processed

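Array A and array B intensities were read for right and left mouse ears; per the labels, the authors produced the deposited linear signal intensity with MAS5, whose version and scaling are not given in the sources used here. One factor per array brought its trimmed mean (2% off each end, controls left out) to 500, and log2(signal + 16) was fitted in limma 3.58.1 (R 4.3.3; lmFit, eBayes with trend) over 43 ears per array in 5 groups (vehicle, mustard alone, and mustard after dimercaprol or after either of the other pretreatments), all ears as independent samples, with 2-sided tests. Probe sets with a mean scaled signal under 100 were left out, which kept 15953 of 22690 on array A and 17287 of 22575 on array B; 14670 and 11724 of these carry 1 gene symbol in the platform annotation. Nothing says whether ears were processed together. The p-values rest on a spread between ears pooled over the 43 ears of a fit, not on that of the 11 compared ears. With the 2 compared groups fitted alone in limma, the adjusted p was 0.00798 for Cxcl1, 0.00676 for Il1b and 0.0274 for Jun. Il33 missed the threshold there (adjusted p = 0.0543). The number of arrays limits the precision. Fits were tested on simulated data. The genes named are the 12 largest rises and falls on array A and 6 and 6 on array B among genes called with and without mustard ears 5 and 37 whose ears did not overlap, up to 4 per list by adjusted p, and members whose role was needed. The comparison, lists and role genes were chosen with earlier results of these data known. Alternatives covered scaling, pseudocount, filter, covariates, ears left out and, with duplicateCorrelation or right minus left ears, the animal.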

Additional observations from a re-analysis of the deposited data

Results flagged for a closer look

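In 28 of 314 sets of ears tested (8.92%) 1 ear stood apart from the rest. Each set was the 5 mustard or the 6 pretreated ears for a named gene, or for the brightness or Gapdh ratio of an array. The gap of that ear to the nearest ear, divided by the range of the group, passed Dixon's 95% limit for the group size. For independent, normally distributed sets chance passes that limit in about 1 of 20. The sets here reuse the same ears over many genes, so that rate gives no test of the share found. Mustard ear 36 made 22 of the 28.

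Mustard ear 36 was the lowest of its group for keratins and epidermal products, with a gap of 0.925 of the range for Krt17, 0.844 for Krt16, 0.838 for Krt6b, 0.898 for S100a9, 0.844 for S100a8, 0.843 for Sprr2f, 0.735 for Slpi and 0.712 for Defb3. It was also the lowest for signals and receptors, with 0.897 for Cxcl1, 0.816 for Epgn, 0.778 for Ltb4r1, 0.761 for Tnf and 0.748 for Osmr, and for Aen (0.902), Hsp90aa1 (0.859) and Ercc1 (0.843). It was the highest for Col4a5 (0.842), Sema3d (0.838), Gstm1 (0.799), Gstt3 (0.771), Slc6a4 (0.749) and Pdgfc (0.72). This ear had the brightest array A of its group (137). Its hair follicle markers were 1.43 above the vehicle mean, within the range of the vehicle ears (-1.22 to 1.71). The part of brightness and of hair follicles in these values was not tested. For Cdkn1a, Ephx1 and the p53 arrest list it stayed above every vehicle ear.

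Among the others, mustard ear 37 was lowest for Asah1 (0.739). Pretreated ear 12 was highest for Procr (0.72) and Mdm2 (0.629) and lowest for Cldn8 (0.664), pretreated ear 11 was highest for Il1rap (0.646) and pretreated ear 8 lowest for Cttnbp2 (0.671).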

How the results depend on the processing

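The 4280 calls on array A became 13232 without rescaling (13171 higher and 61 lower, against 2488 and 1792), 1740 with the Gapdh 3' to 5' ratio as a covariate, 327 with brightness as a covariate, 1417 without mustard ears 5 and 37, and 3018 (without mustard ear 37) to 5275 (without mustard ear 36) with 1 ear left out. The 2844 on array B became 4218 without rescaling (4157 higher and 61 lower, against 1619 and 1225), 1292 with the 2 compared groups fitted alone, 512 with the Gapdh ratio, 447 with brightness, 738 without mustard ears 5 and 37, and 1606 (without mustard ear 37) to 3776 (without mustard ear 36) with 1 ear left out. Mustard ears 3 and 36 were also set against pretreated ears 8, 11 and 12, ears nearer in brightness that were chosen after seeing the data. This gave 1 call on array A (1798 at an unadjusted p under 0.05) and 13 on array B (1755). These ears were alike in brightness on array B (34.2 to 37.9). On array A the mustard ears (130 and 137) were still dimmer than the pretreated ears (149 to 172). Other settings moved the count on array A to between 2931 (the 2 compared groups fitted alone) and 4373. Of 146 called genes named, 144 kept their call after quantile normalization, 146 with a pseudocount of 64 and 143 with the 2 compared groups fitted alone. The call was kept by 133 with the Gapdh ratio, 58 with brightness and 133 without mustard ears 5 and 37. Genes named by size had to be called without those 2 ears, and most others were taken by adjusted p. These counts therefore do not stand for all genes, of which 3601 were called with all ears and 1221 without mustard ears 5 and 37. Without rescaling 101 kept it, 29 lost it and 16 turned positive: Cxcl13 (0.043), Rela (0.23), Jund (0.22), Ercc5 (0.13), Ccng1 (0.28), Phlda3 (0.26), Btg2 (0.24), Aen (0.34), Brca2 (0.12), Mt2 (0.38), Hspa8 (0.45), Hsp90aa1 (0.026), Ldha (0.37), Ephx1 (0.48), Egfr (0.36) and Sesn2 (0.37). That setting adds the brightness gap between the groups to every gene. For the other settings the cause was not tested. Signals near the filter of 100 carry the least precision. The pretreated and mustard ears come from different animals, so they cannot be paired with each other, but left ears allow 2 replicate block fits, both chosen after seeing the data. With the animal as a random block 4215 probe sets were called on array A and 2790 on array B, and 146 of the 146 genes kept their call. The paired right minus left differences, 4 animals against 4, gave 0 calls on array A and 0 on array B. In them 145 of 146 genes kept their direction, while Astx3 turned to 0.060. These differences reuse right ears from which the genes were chosen, so the kept direction is a description.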

Other observations

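Genes outside the pathways above were among the largest differences between pretreated and mustard ears. On array B, Sema3d, a semaphorin guidance protein, read 704, 862, 732, 2443 and 810 in mustard ears 1, 3, 5, 36 and 37 and 3602 to 5233 (median 4503) in the pretreated ears, with no overlap (2.15 ± 0.27, adjusted p = 8.26e-07). Atp10b, a phospholipid flippase, read 187, 67.0, 118, 1079 and 69.5 in the same ears and 1264 to 3227 after pretreatment (3.32 ± 0.52, adjusted p = 1.9e-05; 3.97 without mustard ear 36). In both, mustard ear 36 was the nearest to the pretreated ears. Fmo2, a flavin monooxygenase that oxidises xenobiotics, read 745, 479, 278, 1103 and 182 on array B in the same mustard ears and 1762 to 3150 after pretreatment (2.19 ± 0.37, adjusted p = 5.41e-05), and on array A it had 1.26 with overlapping ears. Cenpi, Cttnbp2 and Bbox1 were also higher on array B, at 2.87, 2.20 and 2.07, and Lrrc34, Spata31d1d, Tmem52b and Astx3 lower, at -1.70, -1.64, -1.59 and -1.59. Lrrc34 read 18.5 to 114 in the pretreated ears and 45.7 to 223 in the vehicle ears.

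On array A, Slc22a4, an organic cation transporter, had 1.96, Npl 1.72, Oas1c 1.71, Rab30 1.70 and Kazald1 1.66. Ptpn23, Tinagl1, Isg20, Cdhr1 and Enc1 had -1.84, -1.82, -1.70, -1.68 and -1.44. For Apcdd1 and Rnps1 the arrays differed. Apcdd1, an inhibitor of Wnt signals, had 1.71 and was called on array A, but its brighter probe set on array B read 1398 to 2194 after mustard alone and 1785 to 2378 after pretreatment, a difference of 0.20 that was not called. Rnps1 had -1.82 and was called on array B, and -0.26 and was not called on array A.

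Among growth factor lists, 5 of 28 Wnt genes rose and 2 fell, and 4 of 23 genes of the FGF, TGF-beta and activin families rose and 2 fell. These counts are near the shares over all genes, 14.3% higher and 9.63% lower. Of 15 genes of insulin-like growth factor signalling 4 rose and 0 fell (1 at an unadjusted p under 0.05). Without mustard ears 5 and 37, 1 gene of each list rose, against 5.49% of all genes, and 2 genes of the FGF list fell. Fst, the activin inhibitor follistatin, had -1.23, and Pdgfc, a platelet-derived growth factor, and Irs1, an insulin receptor substrate, 1.06 and 0.87. Of 28 genes of collagens and elastic fibres 2 rose and 2 fell, and 0 were called in either direction without mustard ears 5 and 37 (2 higher and 1 lower unadjusted). Of 24 genes of the mitochondrial respiratory chain 6 fell and 0 rose (0 unadjusted), with a median of -0.13 (0.77 without rescaling).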
